A study of Mus musculus with 6 samples.

Results

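The genes described are Myc, its paralogue Mycn and 36 factors that build ribosomes in the nucleolus. They were taken as the gene rows whose identifier maps to 38 listed mouse symbols, so 38 of the 52740 rows of the count table were members. No measured value of these samples entered that rule, although the list was drawn up with earlier results of these data known. The members comprised 2 Myc transcription factors, 4 RNA polymerase I subunits or initiation factors, 8 small nucleolar ribonucleoprotein (snoRNP) proteins, 8 small subunit factors, 12 large subunit factors and 4 multifunctional nucleolar proteins. The expression filter kept 37 of them, and Mycn was too low to be tested.

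The libraries come from C2C12, an established line of mouse myoblasts, the proliferating muscle precursors that fuse into myotubes when they differentiate. The cells were transfected by lipid with an siRNA against Cox7a2l (Cox7a2l siRNA, 3 libraries) or with a control siRNA (3 libraries), and both groups were kept in growth medium with fetal bovine serum. Cox7a2l encodes a mitochondrial scaffold protein that links respiratory complexes to each other in supercomplexes, and the study asks how those assemblies bear on myoblast differentiation. Total RNA was depleted of ribosomal RNA, so the libraries do not measure the ribosomal RNA that these factors process. The model is 1 cell line, and neither the number of siRNA sequences nor the time after transfection is stated in the labels. The labels do not state whether replicates were grown as separate cultures; a p-value here therefore reflects the spread of these libraries, part of which may be technical.

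A ribosome begins with RNA polymerase I, which transcribes the long precursor of the ribosomal RNAs in the nucleolus. SnoRNPs methylate and pseudouridylate that precursor, and separate sets of factors then cut, fold and export the small and the large subunit. Myc, with its partner Max, binds the E-box CACGTG and is known as an activator of many of these genes, and its level is high in dividing myoblasts and low in differentiated muscle.

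Promoter sequences were looked up to show which members carry that E-box near the start of transcription. RefSeq entries on GRCm38.p6, covering 250 bases before to 50 bases after the start, were found for 32 of the 38 members. No entry was found for Bop1, Myc, Rrp12, Rrs1, Fbl and Npm1. The 6 letters CACGTG read the same on both strands, and 6 members (18.8% of those with an entry) held them, against 8.09% of 27025 genes with an entry. Rrn3 had matches beginning 215 and 48 bases before the start, and Nop2 had 1 match beginning 60 bases before it. In Pes1, Wdr43, Utp20 and Mybbp1a the match began 3, 18, 38 and 41 bases after the start. The sequences are printed for 5 of these 6, chosen by number of matches and then by level, with the E-box in capitals. All lie on the plus strand, at chr16:13780449-13780698 for Rrn3, chr6:125131633-125131882 for Nop2, chr11:72441347-72441376 for Mybbp1a, chr17:71616220-71616249 for Wdr43 and chr11:3963965-3963994 for Pes1.
Rrn3: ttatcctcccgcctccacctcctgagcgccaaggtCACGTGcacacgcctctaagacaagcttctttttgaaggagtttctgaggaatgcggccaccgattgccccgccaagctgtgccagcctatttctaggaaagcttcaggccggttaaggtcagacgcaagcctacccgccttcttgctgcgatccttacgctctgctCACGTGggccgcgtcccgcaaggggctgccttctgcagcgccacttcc
Nop2: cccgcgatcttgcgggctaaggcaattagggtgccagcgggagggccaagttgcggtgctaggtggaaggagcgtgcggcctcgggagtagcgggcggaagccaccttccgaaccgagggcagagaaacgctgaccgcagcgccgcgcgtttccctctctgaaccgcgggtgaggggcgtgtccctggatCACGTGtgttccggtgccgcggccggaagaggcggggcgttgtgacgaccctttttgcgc
Mybbp1a: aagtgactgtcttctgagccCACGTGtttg
Wdr43: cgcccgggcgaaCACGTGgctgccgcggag
Pes1: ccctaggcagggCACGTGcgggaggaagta
A match of letters is a description of the window and not a binding site. The 6 members with a match had log2 fold changes between -0.31 and 0.06 with a median of -0.09, and the 25 tested members with an entry and no match had a median of -0.13.

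Library totals ran from 9890218 to 15095348 estimated counts in Cox7a2l siRNA cells, where replicate 3 was the smallest, and from 14310241 to 17077826 in control cells. The CPM values below are counts scaled by library size and TMM factors and are not corrected for gene length. The targeted gene followed the labels: Cox7a2l had 6.72, 5.9 and 3.59 CPM in Cox7a2l siRNA replicates 1, 2 and 3, against 58, 59.5 and 58.9 CPM in control replicates 1, 2 and 3 (log2 fold change -3.44, edgeR adjusted p = 1.9e-05). In both groups replicate 3 lay far from the other two on the first principal component, which held 61.2% of the variance, so values without replicate 3 are given beside the main results. Of the cell type markers, 7 of 7 myoblast markers were detected well enough to be tested, with sums of 1389 to 3087 CPM in Cox7a2l siRNA cells and 1512 to 2107 CPM in control cells. None of the 6 endothelial markers passed the filter, with Tie1 and Emcn at 0 in every library and sums of 0.492 to 1.14 CPM in Cox7a2l siRNA cells and 0.726 to 1.1 CPM in control cells. Of the 6 leukocyte markers 1 was tested, Adgre1 was at 0 in every library, and sums were 1.71 to 3.37 CPM in Cox7a2l siRNA cells and 1.79 to 3.3 CPM in control cells. Of 7 fibroblast markers 4 were tested and Dcn rose (edgeR adjusted p = 0.0419), where 0.433% of all genes rose. Tcf21 was at 0 in every library. The fibroblast sums were 3561 to 5387 CPM in Cox7a2l siRNA cells and 2571 to 3532 CPM in control cells.

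Knocking down Cox7a2l was followed by small differences in the ribosome biogenesis genes, mostly towards lower levels, and none of them passed the test. With the replicate number as a block, edgeR's quasi-likelihood test called 0 of the 37 tested members at a Benjamini-Hochberg adjusted p of 0.05, where it called 0.726% of all 15022 genes tested. DESeq2 also called 0 of the 37, where it called 4.4% of the 11527 genes to which it gave an adjusted p. With limma on TPM 0 were called, where 0.0799% of all genes were with 0.5 TPM added and 0.0466% with 0.1 TPM added. At an unadjusted p of 0.05, edgeR had 8 of the 37, against 17.7% of all genes. At that p, 7 of the 37 were lower in Cox7a2l siRNA cells, against 8.97% of all genes. These were Nop58, Nhp2, Nop56, Wdr75, Heatr1, Gnl3 and Noc2l. Nop10, 1 of the 37, was higher, against 8.74% of all genes. A negative log2 fold change was found in 28 of the 37 members, against 48.9% of all genes, and the median was -0.12, against 0.01 over all genes. Single members ran from -0.49 to 0.55 on the log2 scale with standard errors of 0.12 to 0.18. Nop58 was called without replicate 2, where 7.87% of all genes were, and Nop10, Nop58 and Wdr75 were called without an expression filter, where 4.7% were. No member was called without replicate 1, without the replicate block or with a term for replicate 3 in its place, settings in which 2.45%, 0.0133% and 1.31% of all genes were called. Without replicate 3, 0 of the 37 members were called, where 0.339% of all genes were, and 12 instead of 9 members had a positive log2 fold change. Libraries of bulk RNA cannot tell fewer cells of a kind from less RNA per cell.

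**Figure D1:**
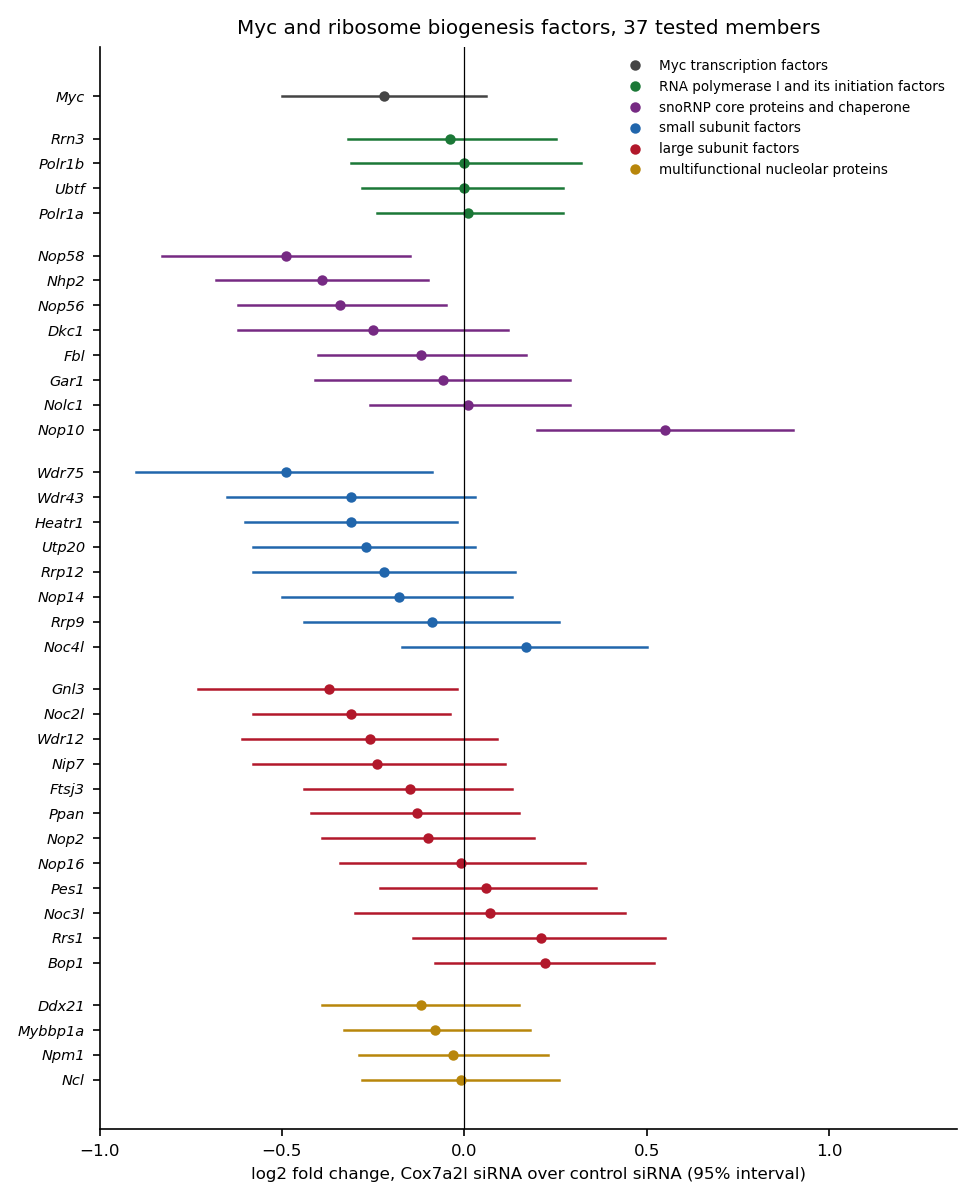
Log2 fold change of each of the 37 tested members, Cox7a2l siRNA over control siRNA (x axis), with points at the estimate and lines spanning the 95% interval, coloured by class. Most points lie left of 0, the 4 RNA polymerase I members lie between -0.04 and 0.01, and Nop10 lies farthest to the right at 0.55.

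The sign of the members differed between pairs, though the pairing is clear only for replicate 3. In the pair of replicate 1 libraries 15 of the 37 members were lower in Cox7a2l siRNA cells, in the pair of replicate 2 libraries 34 of 37, and in the pair of replicate 3 libraries 27 of 37. The median log2 differences of the 3 pairs were 0.05, -0.19 and -0.12, while over all genes they were 0.00, 0.00 and 0.01. Lower values in all 3 pairs were found in 12 of the 37 members, against 20.8% of all genes, and higher values in all 3 pairs in 1 member, Nop10, against 21.2% of all genes. Groups that did not overlap were found in 4 members that were lower (Nop58, Nhp2, Gnl3 and Noc2l), against 7.62% of all genes, and in 1 that was higher (Nop10), against 7.96%. The summed CPM of all 38 members was 3305, 2855 and 3286 in Cox7a2l siRNA replicates 1, 2 and 3, against 3248, 3270 and 3552 in control replicates 1, 2 and 3. These sums overlap, and the lowest was that of Cox7a2l siRNA replicate 2.

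Compared by class, the RNA polymerase I members lay at 0 and the small subunit factors lay lowest. The snoRNP proteins, however, lay lowest on TPM, without replicate 2 and within the pairs of replicates 1 and 3. Class medians of the log2 fold change were 0.00 for the 4 RNA polymerase I members, -0.25 for the 8 small subunit factors, -0.12 for the 12 large subunit factors, -0.18 for the 8 snoRNP proteins and -0.05 for the 4 multifunctional nucleolar proteins. Negative values were found in 2 of 4, 7 of 8, 8 of 12, 6 of 8 and 4 of 4 of them in that order. Within the pairs of replicates 1, 2 and 3 the small subunit median was 0.04, -0.39 and -0.23, and the large subunit median was 0.07, -0.21 and -0.07. The snoRNP median was -0.07, -0.16 and -0.26, and that of RNA polymerase I was 0.07, 0.00 and -0.11. Small subunit factors thus lay below large subunit factors in each pair, and both classes were near 0 in pair 1. Without replicate 3 the medians were 0.02 for RNA polymerase I, -0.24 for the small subunit, -0.11 for the large subunit and -0.13 for snoRNP proteins. On TPM, where the median of all genes shifted to -0.21, the medians were -0.25 for RNA polymerase I, -0.42 for the small subunit, -0.32 for the large subunit and -0.48 for snoRNP proteins. Without replicate 2 they were -0.16 for the small subunit and -0.20 for snoRNP proteins. The difference between classes was not tested.

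**Figure D2:**
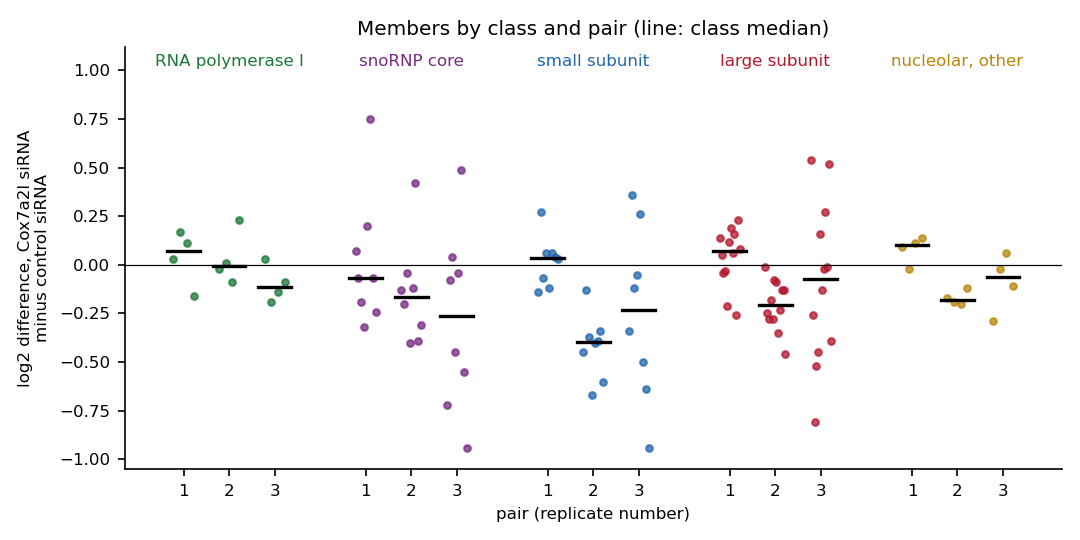
Log2 difference in CPM of each member, Cox7a2l siRNA minus control siRNA (y axis), within the pairs of replicates 1, 2 and 3 (x axis) for each class, with a line at the class median. Small subunit factors scatter around 0 in pair 1 (median 0.04) and lie mostly below 0 in pair 2 (median -0.39) and pair 3 (median -0.23).

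Myc (ENSMUSG00000022346.18), the transcription factor that drives growth genes, had 36.1, 36.6 and 82.5 CPM in Cox7a2l siRNA replicates 1, 2 and 3, against 44.3, 41.4 and 93.7 CPM in control replicates 1, 2 and 3. It was lower in each of the 3 pairs, with log2 differences of -0.30, -0.18 and -0.18, yet the groups overlapped because replicate 3 was high in both. The log2 fold change was -0.22 ± 0.13 (SE) with a 95% interval of -0.50 to 0.06 (edgeR adjusted p = 0.404), and -0.24 without replicate 3. Replicate 3 held 2.27 times the mean of replicates 1 and 2 in Cox7a2l siRNA cells and 2.19 times in control cells, a larger contrast than that between the siRNAs. Mycn, the paralogue best known from embryonic tissue, had 3, 5 and 1 counts in Cox7a2l siRNA replicates 1, 2 and 3, against 10, 3 and 1 counts in control replicates 1, 2 and 3, and no fold is given.

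The RNA polymerase I members differed least between the groups. Polr1a, the largest subunit of the enzyme, had 121, 117 and 109 CPM in Cox7a2l siRNA cells, against 119, 118 and 107 CPM in control cells, so the groups overlapped almost fully. Its log2 fold change was 0.01 with a 95% interval of -0.24 to 0.27. The intervals of the 4 members together spanned -0.32 to 0.32, which leaves room for differences of up to 1.25-fold. Polr1b, its partner in the active centre, had 44.9, 38.9 and 21.9 CPM in Cox7a2l siRNA cells, against 39.8, 38.6 and 25 CPM in control cells, and was lowest in replicate 3 of both groups. Ubtf, which binds the ribosomal DNA promoter and enhancer, averaged 146 ± 20.6 CPM in Cox7a2l siRNA cells and 145 ± 5.61 CPM in control cells (SD, n = 3 each). Rrn3, which bridges the polymerase to its promoter factors and whose promoter holds a pair of E-boxes, averaged 56.8 ± 7.93 CPM in Cox7a2l siRNA cells and 58 ± 2.65 CPM in control cells (SD, n = 3 each).

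Among snoRNP proteins, those of the methylation complex (box C/D) had negative fold changes. Nop58 (ENSMUSG00000026020.10), a core protein that holds the guide RNA, had 77.3, 66.8 and 56.1 CPM in Cox7a2l siRNA replicates 1, 2 and 3, against 91, 82.7 and 108 CPM in control replicates 1, 2 and 3. All Cox7a2l siRNA libraries lay below all control libraries, by most in replicate 3. The log2 fold change was -0.49 ± 0.15 (SE), with a 95% interval of -0.83 to -0.15 (edgeR adjusted p = 0.138), and -0.27 without replicate 3 (edgeR adjusted p = 0.321). On TPM with 0.5 added it was -0.89 (limma adjusted p = 0.279), where the median of all genes was -0.21. Nop58 passed the test without replicate 2, with an adjusted p of 0.0281, and without an expression filter, with 0.0121. Its partner Nop56 had 173, 135 and 112 CPM in Cox7a2l siRNA cells, against 182, 177 and 164 CPM in control cells, and overlapped through Cox7a2l siRNA replicate 1. Its log2 fold change was -0.34, and -0.23 without replicate 3. Of its 31-base words 22.4% also occur in transcripts of other genes, so its counts are uncertain. Fbl, the methyltransferase of the complex, averaged 49.5 ± 1.77 CPM in Cox7a2l siRNA cells and 53.7 ± 4.62 CPM in control cells (SD, n = 3 each), with 20.7% of its words shared.

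In the pseudouridylation complex (box H/ACA), Nhp2 and Nop10 lay on opposite sides of 0. Nop10 (ENSMUSG00000027133.4), a small protein that contacts the pseudouridine synthase, had 20.9, 18.7 and 25.5 CPM in Cox7a2l siRNA replicates 1, 2 and 3, against 12.4, 14 and 18.1 CPM in control replicates 1, 2 and 3. The groups did not overlap, with the lowest Cox7a2l siRNA library just above the highest control library. In TPM they overlapped, at 18.3, 15 and 14.7 TPM in Cox7a2l siRNA replicates 1, 2 and 3, against 10.9, 12.3 and 16.6 TPM in control replicates 1, 2 and 3, and the pair of replicate 3 was reversed. The log2 fold change was 0.55 ± 0.16 (SE), with a 95% interval of 0.20 to 0.90 (edgeR adjusted p = 0.113), and 0.58 without replicate 3 (edgeR adjusted p = 0.158). On TPM with 0.5 added it was 0.27 (limma adjusted p = 0.618), where the median of all genes was -0.21. In the authors' deposited table Nop10 had a log2 fold change of 0.55 and an adjusted p of 0.0428. It was the 1 member of 37 under 0.05 there, where 6.34% of the 12742 genes with an adjusted p were. Nhp2 (ENSMUSG00000001056.4), which binds the guide RNA beside it, had 36.5, 42.8 and 32.8 CPM in Cox7a2l siRNA cells, against 45.7, 56.4 and 44.7 CPM in control cells. These groups did not overlap either, with a log2 fold change of -0.39 ± 0.13 (SE, edgeR adjusted p = 0.166) and -0.36 without replicate 3. The ratio of Nop10 to Nhp2 was 0.573, 0.437 and 0.777 in Cox7a2l siRNA replicates 1, 2 and 3, against 0.272, 0.248 and 0.406 in control replicates 1, 2 and 3, as CPM of unequal transcript lengths. The ratio was higher in each Cox7a2l siRNA library than in every control library. That separation follows from the lack of overlap in each of these genes and adds nothing to it. The ratio was formed after the values were seen. The catalytic subunit Dkc1 had 39, 35.6 and 23.2 CPM in Cox7a2l siRNA cells, against 37.2, 38.9 and 38.3 CPM in control cells, and only replicate 3 lay clearly apart (log2 fold change -0.25, and -0.03 without replicate 3). Gar1, the remaining core protein, averaged 17.1 ± 5.54 CPM in Cox7a2l siRNA cells and 17.6 ± 4.4 CPM in control cells, and the chaperone Nolc1 averaged 85.1 ± 19.1 CPM in Cox7a2l siRNA cells and 84.6 ± 21 CPM in control cells (SD, n = 3 each).

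**Figure D3:**
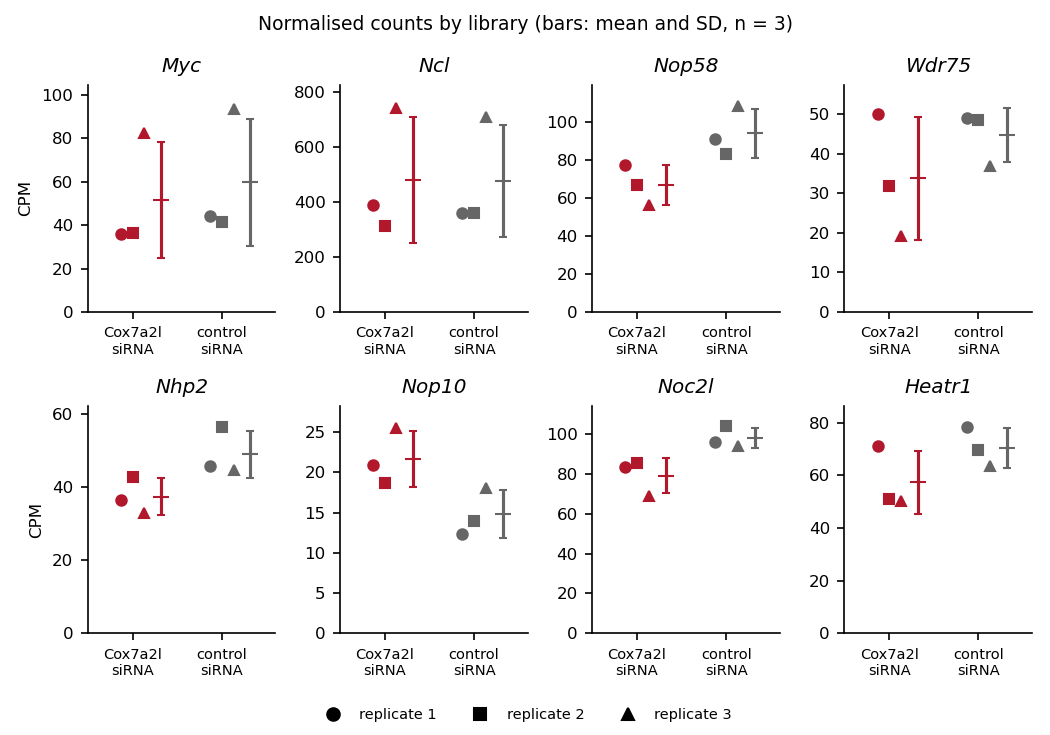
CPM (y axis) of 8 members by library, with Cox7a2l siRNA on the left and control siRNA on the right of each panel, symbols for replicate numbers and bars for the mean and SD (n = 3). The groups do not overlap for Nop58, Nhp2, Noc2l and Nop10, while Myc and Ncl are set apart mainly by high values in replicate 3 of both groups.

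Small subunit factors assemble on the precursor while it is being transcribed. Wdr75, a UTP-A subcomplex protein of that early assembly, had 50.2, 31.9 and 19.2 CPM in Cox7a2l siRNA replicates 1, 2 and 3, against 49, 48.5 and 37 CPM in control replicates 1, 2 and 3. Replicate 1 was level, and replicates 2 and 3 were lower, so the groups overlapped. The log2 fold change was -0.49 ± 0.18 (SE, edgeR adjusted p = 0.2), and -0.28 without replicate 3; without an expression filter its adjusted p was 0.0343. Heatr1 and Wdr43 belong to the same subcomplex, and of these only Wdr43 was level in replicate 1 as Wdr75 was. Heatr1 had 71, 50.8 and 50.1 CPM in Cox7a2l siRNA cells, against 78.3, 69.5 and 63.4 CPM in control cells. In CPM it was lower in every pair (log2 fold change -0.31, edgeR adjusted p = 0.249). In TPM its replicate 1 pair was reversed, at 15.3 TPM in Cox7a2l siRNA cells and 14.4 TPM in control cells. On TPM with 0.5 added its log2 fold change was -0.18, where the median of all genes was -0.21. Wdr43 had 60.5, 45.4 and 38.6 CPM in Cox7a2l siRNA cells, against 58.6, 57.6 and 60.1 CPM in control cells, again with replicate 1 level (log2 fold change -0.31, edgeR adjusted p = 0.326). Without replicate 3 the values were -0.30 for Heatr1 and -0.15 for Wdr43.

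Utp20, a large scaffold protein of the small subunit processome, had 126, 90.4 and 69.4 CPM in Cox7a2l siRNA cells, against 121, 119 and 98.1 CPM in control cells. Its replicate 1 libraries were level and the other two pairs were lower with Cox7a2l siRNA, as in Wdr75, with a log2 fold change of -0.27, and -0.16 without replicate 3. Rrp12, which helps to export the subunit precursor, had 61.5, 37 and 37.4 CPM in Cox7a2l siRNA cells, against 59, 59 and 38.8 CPM in control cells. Only its replicate 2 pair lay clearly apart, by -0.67 on the log2 scale. The remaining members were Nop14 and Noc4l, which bind each other in yeast, and the U3 snoRNP protein Rrp9. Their log2 fold changes were -0.18, 0.17 and -0.09, and without replicate 3 they were -0.22, 0.07 and -0.26. Noc4l was the 1 small subunit factor with a positive value. It was -0.08 on TPM with 0.5 added, where the median of all genes was -0.21.

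The large subunit factors act at successive assembly steps. Bop1, Pes1 and Wdr12 form the PeBoW complex that processes the large subunit precursor. Bop1 had 141, 133 and 131 CPM in Cox7a2l siRNA replicates 1, 2 and 3, against 128, 134 and 90.4 CPM in control replicates 1, 2 and 3. Wdr12 had 33.3, 23.2 and 20.4 CPM in Cox7a2l siRNA cells, against 31.5, 32 and 26.9 CPM in control cells. Both overlapped between the groups, with log2 fold changes of 0.22 for Bop1 (edgeR adjusted p = 0.434) and -0.26 for Wdr12 (edgeR adjusted p = 0.438). In CPM, subunits of 1 complex thus lay on either side of 0. On TPM with 0.5 added, where the median of all genes was -0.21, Bop1 was at -0.10 and Wdr12 at -0.45. Without replicate 3 the log2 fold changes were 0.06 for Bop1 and -0.19 for Wdr12. Pes1 averaged 93.8 ± 15.8 CPM in Cox7a2l siRNA cells and 88.8 ± 1.53 CPM in control cells (SD, n = 3 each). Shared words made up 32.4% of Pes1 and 11.7% of Wdr12, so their counts are uncertain.

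Gnl3, the GTP-binding nucleostemin of proliferating and stem cells, had 57.2, 49.6 and 40.2 CPM in Cox7a2l siRNA cells, against 58.8, 60.2 and 70.6 CPM in control cells. Noc2l, which carries the precursor towards the nucleoplasm in yeast, had 83.3, 85.4 and 68.9 CPM in Cox7a2l siRNA cells, against 96.2, 104 and 94.2 CPM in control cells. In both genes every Cox7a2l siRNA library lay below every control library. Their log2 fold changes were -0.37 ± 0.16 for Gnl3 (SE, edgeR adjusted p = 0.257) and -0.31 ± 0.12 for Noc2l (SE, edgeR adjusted p = 0.218), and without replicate 3 they were -0.16 and -0.25. Noc3l, the partner of Noc2l in yeast, averaged 13.7 ± 1.51 CPM in Cox7a2l siRNA cells and 13 ± 0.494 CPM in control cells (SD, n = 3 each). Rrs1, which helps to install the 5S particle, had 40, 35.1 and 47.5 CPM in Cox7a2l siRNA cells, against 34.1, 38.3 and 33.2 CPM in control cells, with 15.8% of its words shared. Its log2 fold change was 0.21, and 0.05 without replicate 3. On TPM with 0.5 added it was -0.06, where the median of all genes was -0.21. Nip7, Ppan, Nop2, Nop16 and Ftsj3 complete the class, with log2 fold changes of -0.24, -0.13, -0.10, -0.01 and -0.15, and without replicate 3 of -0.11, -0.20, -0.15, 0.05 and -0.10. Of these, Nip7 and Ppan were lower in all 3 pairs, and 10.1% of the words of Nip7 were shared.

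The multifunctional nucleolar proteins had log2 fold changes of -0.01 for Ncl, -0.03 for Npm1, -0.08 for Mybbp1a and -0.12 for Ddx21. Mybbp1a was lower in every pair. Ncl, the nucleolin that packs and folds the precursor, had 389, 312 and 742 CPM in Cox7a2l siRNA replicates 1, 2 and 3, against 361, 359 and 711 CPM in control replicates 1, 2 and 3 (log2 fold change -0.01). As with Myc, replicate 3 was high in both groups, at 2.12 times the mean of replicates 1 and 2 in Cox7a2l siRNA cells and 1.97 times in control cells. Npm1, a histone and ribosome chaperone, averaged 317 ± 56.9 CPM in Cox7a2l siRNA cells and 325 ± 70.5 CPM in control cells (SD, n = 3 each), with 29.2% of its words shared. Mybbp1a, a nucleolar Myb-binding protein, averaged 275 ± 49.5 CPM in Cox7a2l siRNA cells and 291 ± 56.8 CPM in control cells (SD, n = 3 each). Ddx21, an RNA helicase that acts on ribosomal DNA transcription, averaged 158 ± 19.1 CPM in Cox7a2l siRNA cells and 171 ± 5.3 CPM in control cells (SD, n = 3 each).

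Levels can be compared between genes in TPM, which are corrected for transcript length. Npm1 was the most abundant member, with 215 ± 24.5 TPM in Cox7a2l siRNA cells and 266 ± 106 TPM in control cells (SD, n = 3 each). Ncl and Nop56 followed, with 106 ± 37.6 TPM and 89.5 ± 45.2 TPM in Cox7a2l siRNA cells and 128 ± 63.5 TPM and 131 ± 10 TPM in control cells (SD, n = 3 each). The SDs of these 3 genes overlap at that level except between Npm1 and the others in Cox7a2l siRNA cells and between Npm1 and Nop56 in control cells. Noc3l was the lowest tested member, with 2.49 ± 0.409 TPM in Cox7a2l siRNA cells and 2.85 ± 0.19 TPM in control cells (SD, n = 3 each). A single gene row with no symbol held between 36.9% and 53.6% of each library's TPM, on which the TPM of all other genes depend.

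Replicate 3 deviated from replicates 1 and 2 in the same direction in both groups for 28 of the 37 tested members, close to the 72.7% of all genes that did so. Of the 37, 9 were higher in replicate 3 in both groups and 19 were lower in both, against 35.4% and 37.3% of all genes. Myc, Ncl, Gar1, Nolc1, Nop10 and Npm1 were among the 9 that were higher. What the replicate numbers share is not stated, and the cause of the difference was not tested.

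**Figure D4:**
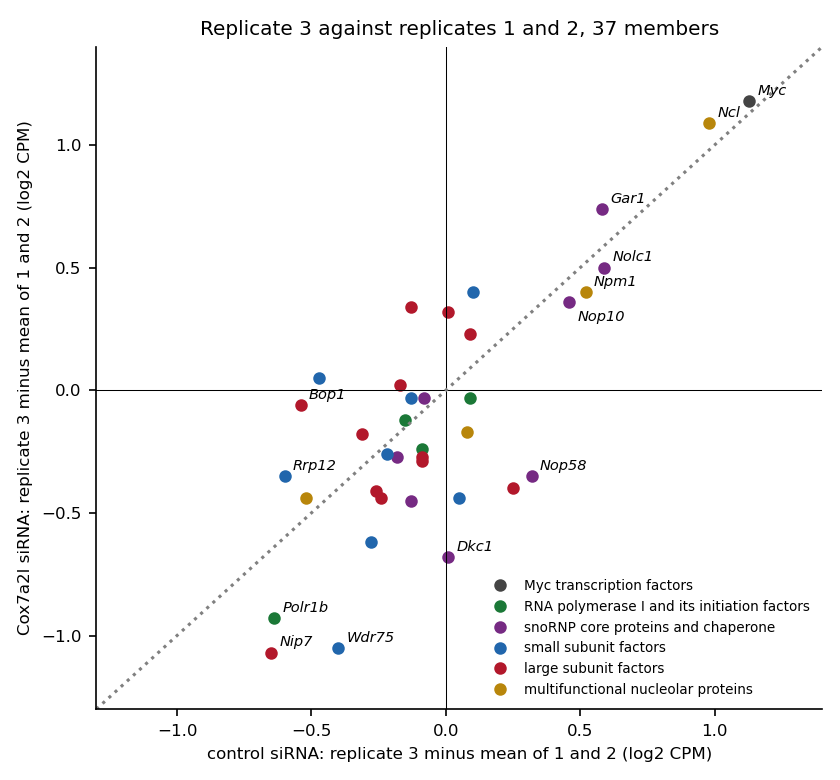
Log2 CPM of replicate 3 minus the mean of replicates 1 and 2, in Cox7a2l siRNA cells (y axis) and in control cells (x axis), for the 37 tested members coloured by class. Myc and Ncl lie far to the upper right, with replicate 3 at about 2-fold in both groups, and 19 members lie in the lower left quadrant.

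Outside the members, a pair of genes of the Myc network passed the test. Of 11 tested Myc partners and antagonists 2 rose and 0 fell, where 0.433% of all genes rose and 0.293% fell. Mxd4, which pairs with Max and represses E-box genes, had 120, 128 and 149 CPM in Cox7a2l siRNA replicates 1, 2 and 3, against 79.5, 73.6 and 68.2 CPM in control replicates 1, 2 and 3. All Cox7a2l siRNA libraries were above all control libraries. The log2 fold change was 0.84 ± 0.13 (SE), a fold of 1.79 (edgeR adjusted p = 0.0263), and 0.70 without replicate 3 (edgeR adjusted p = 0.0459). Mycl, a Myc paralogue, had 21.2, 9.55 and 50.4 CPM in Cox7a2l siRNA cells, against 8.52, 6.74 and 21.8 CPM in control cells. It was higher in every pair, but the groups overlapped since replicate 3 was high in both. Its log2 fold change was 1.04 ± 0.19 (SE), a fold of 2.05 (edgeR adjusted p = 0.04), and without replicate 3 it was 0.94 (edgeR adjusted p = 0.113). Without the replicate block neither passed, with adjusted p of 0.735 for Mxd4 and 0.823 for Mycl.

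Other genes of the network did not pass the test. Mxd1, a repressor of the same family as Mxd4, had 10.9, 10.3 and 15.7 CPM in Cox7a2l siRNA cells, against 7.79, 7.16 and 6.09 CPM in control cells, with a log2 fold change of 0.79 (edgeR adjusted p = 0.108). Mxi1 and Mxd3, repressors too, had log2 fold changes of -0.53 (edgeR adjusted p = 0.118) and -0.52 (edgeR adjusted p = 0.132). The Max-binding repressors therefore lay on both sides of 0. Max itself had 29.7, 30.4 and 68.6 CPM in Cox7a2l siRNA cells, against 28.7, 28.6 and 50.4 CPM in control cells, a log2 fold change of 0.20 with a 95% interval of -0.12 to 0.52.

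**Figure D5:**
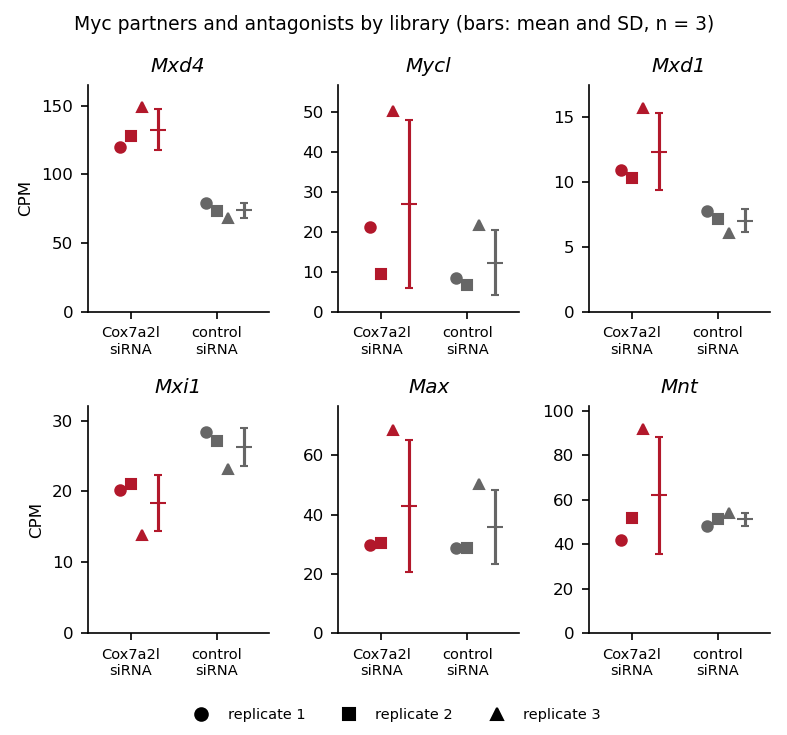
CPM (y axis) of 6 Myc partners and antagonists by library, with Cox7a2l siRNA on the left and control siRNA on the right of each panel, symbols for replicate numbers and bars for the mean and SD (n = 3). Mxd4 lies at 120 to 149 CPM with Cox7a2l siRNA and at 68.2 to 79.5 CPM with control siRNA, while Mycl and Max are highest in replicate 3 of both groups.

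Among other genes of the pathway, 0 passed the test in any list, where 0.726% of all genes did. The lists were 23 classical Myc targets outside the nucleolus, 17 further RNA polymerase I subunits and factors, 47 further small subunit factors, 48 further large subunit factors, 10 snoRNP assembly factors and 13 exosome subunits. Their median log2 fold changes were -0.06, 0.12, -0.03, -0.01, -0.04 and -0.12, beside 0.01 over all genes and -0.12 over the members. Negative values were found in 18 of 23 Myc targets and 9 of 13 exosome subunits, and in 6 of 17, 29 of 47, 28 of 48 and 6 of 10 genes of the RNA polymerase I, small subunit, large subunit and snoRNP assembly lists, against 48.9% of all genes. At an unadjusted p of 0.05, 7 of the 23 Myc targets and 3 of the 13 exosome subunits were lower in Cox7a2l siRNA cells, against 8.97% of all genes. At that p, 1 of the 23 Myc targets and 1 of the 13 exosome subunits were higher, against 8.74% of all genes. The Myc target was Tert, with a log2 fold change of 0.78 (edgeR adjusted p = 0.108). The classes of members lay lower than these further factors: -0.25 against -0.03 for the small subunit, -0.12 against -0.01 for the large subunit and 0.00 against 0.12 for RNA polymerase I. The difference between the members and the longer lists was not tested. In the pairs of replicates 1, 2 and 3 the further small subunit factors had medians of 0.07, -0.15 and 0.02 and the further large subunit factors 0.07, -0.21 and 0.02, so pair 2 was again the lowest.

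The pathway genes with the smallest p, given as values, included enzymes and subunits outside the nucleolar core. Odc1, the rate-limiting enzyme of polyamine synthesis and a known Myc target, had 114, 78.4 and 57.3 CPM in Cox7a2l siRNA cells, against 130, 141 and 104 CPM in control cells (log2 fold change -0.63, edgeR adjusted p = 0.0781). Bcat1, an enzyme of branched-chain amino acid metabolism and another Myc target, had 89.6, 95.2 and 52.1 CPM in Cox7a2l siRNA cells, against 126, 121 and 103 CPM in control cells (log2 fold change -0.61, edgeR adjusted p = 0.0745). Bcat1 did not overlap between the groups, and Odc1 overlapped through Cox7a2l siRNA replicate 1. The large subunit AAA protein Mdn1 had a log2 fold change of -0.54 (edgeR adjusted p = 0.0728), Rpf2 of the 5S particle -0.65 (0.134), the exosome nuclease Dis3 -0.54 (0.0846) and the exosome subunit Exosc1 -0.47 (0.193). For the small subunit, Utp3 was at 0.48 (0.151) and the dimethyladenosine transferase Dimt1 at -0.52 (0.191). For RNA polymerase I, Twistnb was at -0.45 (0.205) and Polr1d at 0.29 (0.285), and for snoRNP assembly Shq1 was at -0.38 (0.316) and Snu13 at -0.23 (0.396).

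Markers of proliferation and differentiation are given beside the members, since some of them passed the test. All 14 cycling cell markers had negative log2 fold changes, with a median of -0.67. Of these, 2 fell, where 0.293% of all genes did, namely Rrm2 (edgeR adjusted p = 0.0231) and Foxm1 (edgeR adjusted p = 0.046). The summed CPM of the 14 was 1496 to 2348 in Cox7a2l siRNA cells and 3193 to 3337 in control cells. Mki67, the proliferation antigen, had 321, 380 and 285 CPM in Cox7a2l siRNA cells, against 465, 491 and 834 CPM in control cells (edgeR adjusted p = 0.113). Cycling markers were lower in each pair, with medians of -0.45, -0.43 and -1.08. Of 11 tested differentiated muscle markers 3 rose, Tnnt1, Actc1 and Acta1, and 0 fell, where 0.433% of all genes rose and 0.293% fell. The median log2 fold change of the 11 was 1.14, but the pairs differed. Higher values were found in 10, 6 and 11 of the 11 markers in the pairs of replicates 1, 2 and 3. In pair 2 the median of these markers was 0.02. Their summed CPM was 580, 241 and 2503 in Cox7a2l siRNA replicates 1, 2 and 3, against 259, 245 and 1375 in control replicates 1, 2 and 3. The part of these markers in the members' values was not tested.

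The make-up of the libraries also differed between the groups. The largest row lacking a symbol took 6.97%, 7.57% and 11.1% of counts in Cox7a2l siRNA replicates 1, 2 and 3, against 6.59%, 6.25% and 5.81% in control replicates 1, 2 and 3, and the groups did not overlap. Messenger RNA of mitochondrial DNA took 0.616%, 0.589% and 1.61% of counts in Cox7a2l siRNA cells, against 0.6%, 0.603% and 2.78% in control cells, and was highest in replicate 3 of both. The 38 members took 0.346%, 0.288% and 0.296% of counts in Cox7a2l siRNA cells, against 0.33%, 0.332% and 0.359% in control cells. The mitochondrial ribosomal RNA mt-Rnr2 had 1891, 1455 and 2313 CPM in Cox7a2l siRNA cells, against 1398, 1194 and 1344 CPM in control cells (edgeR adjusted p = 0.101). Lars2, the mitochondrial leucyl-tRNA synthetase, took 0.995%, 0.915% and 0.803% of counts in Cox7a2l siRNA cells, against 1.67%, 1.45% and 0.533% in control cells. The part of this composition in the members' values was not tested.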

How the data were processed

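RNA was measured in 6 libraries of C2C12 cells, 3 per group, grouped by the treatment label. The authors deposited estimated counts per gene, TPM values, and a result table with scaled counts (a normalised signal), log2 fold changes and p-values. Per the submitters' processing notes, the tools were Salmon 0.13.1, Trim Galore 0.6.4 and DESeq2 1.30.1, and the build was mm39. Which annotation release was used, and how transcripts were summed to genes, is not given in the sources used here. Symbols were joined by identifier without version from GENCODE M21 (97.6% of rows), whose build, GRCm38, is not that of the files, so coordinates are given only for RefSeq promoters.

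The estimated counts were rounded, and edgeR 4.0.16 under R 4.3.3 tested them (TMM, default filter by group, robust quasi-likelihood fit, Benjamini-Hochberg over 15022 genes, threshold 0.05). That step was tried on simulated data with log2 changes of 1 and 2 in size, larger than that of any tested member. The simulation therefore does not show how often changes as small as those of the members would be called. Standard errors and 95% intervals come from the F statistic. Pair values are log2 CPM with a prior count of 2. The labels number the replicates 1 to 3 in both groups. The number was used as a block because the rule for this comparison asked for it. Deviations from the group means correlated at 0.53, 0.45 and 0.67 between libraries of the same number, each above 0.1. Otherwise they correlated at most at 0.44, 0.43 and -0.51. Deviations from a mean of 3 sum to 0, so a distant replicate 3 in both groups by itself raises the correlations among replicates 1 and 2. The margin is narrow for replicates 1 and 2, no label says what a number shares, and the pairing is clear only for replicate 3. Members and lists were chosen with earlier results of these data known. All members are accounted for. Of other lists up to 3 called genes per direction, or otherwise the 2 of smallest p, are named, with Cox7a2l and a few fixed markers. Tert of the Myc targets, and Mxd1, Mxi1, Mxd3 and Max of the Myc network, were given outside that rule. The other uncalled genes of the Myc network list were not described in the text. Uniqueness was taken as the share of each member's 31-base words found in transcripts of other genes. Alternatives were other scalings, filters and terms, DESeq2 1.42.0, limma 3.58.1 on log2(TPM + 0.5) or log2(TPM + 0.1), and leaving out each pair.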

Additional observations from a re-analysis of the deposited data

How the results depend on the processing

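The count of 0 called members also held with RLE factors, library size alone, a stricter filter, DESeq2, limma on TPM, a term for replicate 3, and no replicate block. Of all genes, 109 of 15022 were called with RLE factors, 58 of 15022 with library size alone and 98 of 12820 with the stricter filter. At such low shares a count of 0 does not set the members apart from other genes. Without an expression filter 3 members were called (Nop10, Nop58 and Wdr75), and leaving out a pair gave 0 to 1. Without the replicate block the lowest adjusted p of a member was 0.766, and the block changed no call of a member, whereas Mxd4 and Mycl were no longer called. Mxd4 was also lost on TPM (adjusted p 0.317 and 0.338), and Mycl on TPM (0.451), with library size alone (0.064), with the term for replicate 3 (0.0783) and without replicate 3 (0.113).

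TPM moved all genes down by a median of -0.21 (0.5 added) or -0.24 (0.1 added), and 1 member stayed positive in either case, against 9. Class medians on TPM with 0.5 and 0.1 added were -0.25 and -0.25 for RNA polymerase I, -0.32 and -0.33 for the large subunit, -0.48 and -0.49 for snoRNP proteins, and -0.32 and -0.32 for nucleolar proteins. The snoRNP median was -0.28 to -0.13 when a pair was left out.

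Single members near 0 changed sign, none of them called. On TPM with 0.5 and 0.1 added this was Rrs1 (-0.06, -0.07), Noc4l (-0.08, -0.09), Bop1 (-0.10, -0.10), Polr1b (-0.11, -0.11), Noc3l (-0.17, -0.20), Nolc1 (-0.19, -0.19), Pes1 (-0.20, -0.20) and Polr1a (-0.26, -0.27). With library size alone it was Nolc1 (-0.03), Polr1a (-0.03) and Polr1b (-0.04), and without a filter Polr1b (-0.01). Without the replicate block Nop16 and Ubtf were at 0.00 and Ncl at 0.01, with the stricter filter Nop16 and Ubtf were at 0.00, and with the term for replicate 3 Ubtf was at 0.01. With a pair left out the lowest and highest values were -0.09 and 0.09 for Polr1b, -0.13 and 0.07 for Ubtf, -0.12 and 0.01 for Rrn3, -0.12 and 0.00 for Gar1, -0.08 and 0.07 for Nolc1, -0.26 and 0.06 for Rrp9, -0.04 and 0.20 for Pes1, -0.19 and 0.01 for Nop2, -0.11 and 0.05 for Nop16, -0.07 and 0.08 for Ncl, and -0.12 and 0.01 for Npm1. The causes were not tested, and the smallest library, Cox7a2l siRNA replicate 3, limits the precision of low genes.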
